A study of Mus musculus with 6 samples.

Results

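The genes described here encode the proteasome of the mouse: its subunits, the chaperones that assemble it and the caps that activate it. They were taken as every row of the deposited table whose symbol begins with Psma, Psmb, Psmc, Psmd, Psme, Psmf or Psmg followed by a digit, which gave 50 of the 20596 rows that carry a symbol. The rule left out 2 pseudogene rows, Psma5.ps and Psmb6.ps2, and it took in Psmc3ip and Psme3ip1, whose products are not proteasome subunits. Of the 50 genes, 49 reached 10 normalized counts in 3 or more libraries and were tested; the exception was Psmb11, the thymus form of a catalytic subunit. Psma8, the testis form of an alpha subunit, was not analysed here.

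The samples were 6 RNA libraries of 266.6 cells, a single line from a mouse pancreatic acinar tumour that was raised with a viral T antigen under the elastase promoter. The CAF_CM group (n = 3) had been given medium conditioned by cancer-associated fibroblasts for up to 40 days, and the control group (n = 3) is the same line, labelled as control. Both were grown in high-glucose DMEM with serum and antibiotics. The labels give the line on exposure for every sample alike and do not say how long control cells were kept, so the medium and the time in culture cannot be told apart. Nor do they say that replicates were separate cultures. The p-values set the difference between groups against the scatter of these libraries, and that scatter may be technical. Each library held 18622370 to 21002226 reads, and the values are normalized counts, read counts that the authors had divided by 1 factor per library.

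Cells destroy most of their unneeded and damaged proteins with the proteasome. Its 20S core is a barrel of stacked rings in which the alpha rings guard the entrance and 3 kinds of beta subunit in the inner rings cut the protein chain. The 19S cap recognises ubiquitin-tagged proteins, removes the tag, unfolds the chain and feeds it into the barrel, and other caps can sit in its place. Under interferon the catalytic beta subunits are exchanged for immunoproteasome subunits, whose peptides suit display on MHC class I. Acinar cells make digestive enzymes in bulk and send misfolded secretory proteins to this machine.

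The cells carried the acinar markers of their label at lower summed levels in CAF_CM than in control. All 10 listed acinar genes had a row, and their sum was 41023 to 46707 normalized counts in CAF_CM libraries, against 72758 to 75352 in control libraries. Most of that sum was Ctrb1, at 20975 to 25180.0 in CAF_CM and 44364 to 46221 in control. By gene, 5 of the 10 were called lower and 1 higher, Nr5a2 (log2 difference 0.22, adjusted p 0.0131 by limma). Markers of other cells were low or dominated by 1 gene. The 4 immune markers with a row, of 9 listed, summed to 90.1 to 121 in CAF_CM and 118 to 139 in control, with Ptprc between 1.03 and 2.94 in CAF_CM and between 1.02 and 3.85 in control. The 8 fibroblast markers with a row, of 11 listed, summed to 3165 to 3649 in CAF_CM and 3515 to 3710 in control, mostly Pdgfrb, and the 3 endothelial ones, of 5 listed, to 158 to 191 in CAF_CM and 197 to 226 in control. In bulk RNA, fewer cells of a kind and less RNA per cell cannot be told apart.

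Proteasome genes differed little between the groups. The activators Psme4 and Psme3 and the cap subunits Psmd11, Psmd1 and Psmd2 rose in CAF_CM cells by 1.17-fold to 1.38-fold, as did the cap chaperone Psmd5. The core subunit Psma3 and the core chaperone Psmg2 fell, by 1.12-fold and 1.22-fold. No subunit of the catalytic beta ring was called in either direction, and the 3 immunoproteasome genes had lower means in CAF_CM than in control without passing the test.

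In counts, 6 of the 49 tested genes were higher in CAF_CM and 2 were lower at an adjusted p under 0.05, by limma over all 16169 genes with Benjamini-Hochberg adjustment. That is 12.2% higher and 4.08% lower, beside 18.3% and 16.1% of all genes tested. The share called lower was under that of all genes in this fit and in the alternatives named next, but the share called higher was not always. After a correction for transcript length and GC content 18 of the 49 were higher (36.7%, beside 22.3% of all genes) and 1 was lower. Without CAF_CM replicate 2, 10 were higher (20.4%, beside 19.2%), and without control replicate 1, 6 were higher (12.2%, beside 11.6%) and 1 was lower. Scaling to library totals gave 6 higher and 6 lower (12.2% each), beside 13.8% higher and 19.7% lower of all genes. Without CAF_CM replicate 1, 4 were lower (8.16%, beside 18.2%). Differences of proteasome genes were also small. The median size of the log2 difference was 0.078 over the proteasome genes and 0.19 over all genes. These 2 sets were not matched for expression level. Replicates of proteasome genes also varied less, with a median SD of log2 values in CAF_CM of 0.069, beside 0.121 over all genes. Of the 49, 6 (12.2%) differed by more than 0.25 log2 units, beside 38.4% of all genes, and none reached 2-fold, while 352 genes of the whole table did. The signed median was 0.011 over the 49 and 0.0046 over all genes, with 27 above 0 and 22 below, and it turned to -0.035 over the 49 with scaling to library totals. CAF_CM libraries lay wholly above the control libraries for 12 of the 49 (24.5%, beside 24.8% of all genes) and wholly below for 7 (14.3%, beside 22.9%). Proteasome genes took 0.721%, 0.680% and 0.694% of the reads in CAF_CM replicates 1, 2 and 3, against 0.699%, 0.682% and 0.675% in control replicates 1, 2 and 3, so their summed share overlapped between the groups. This order of replicates holds for every set of values below.

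**Figure D1:**
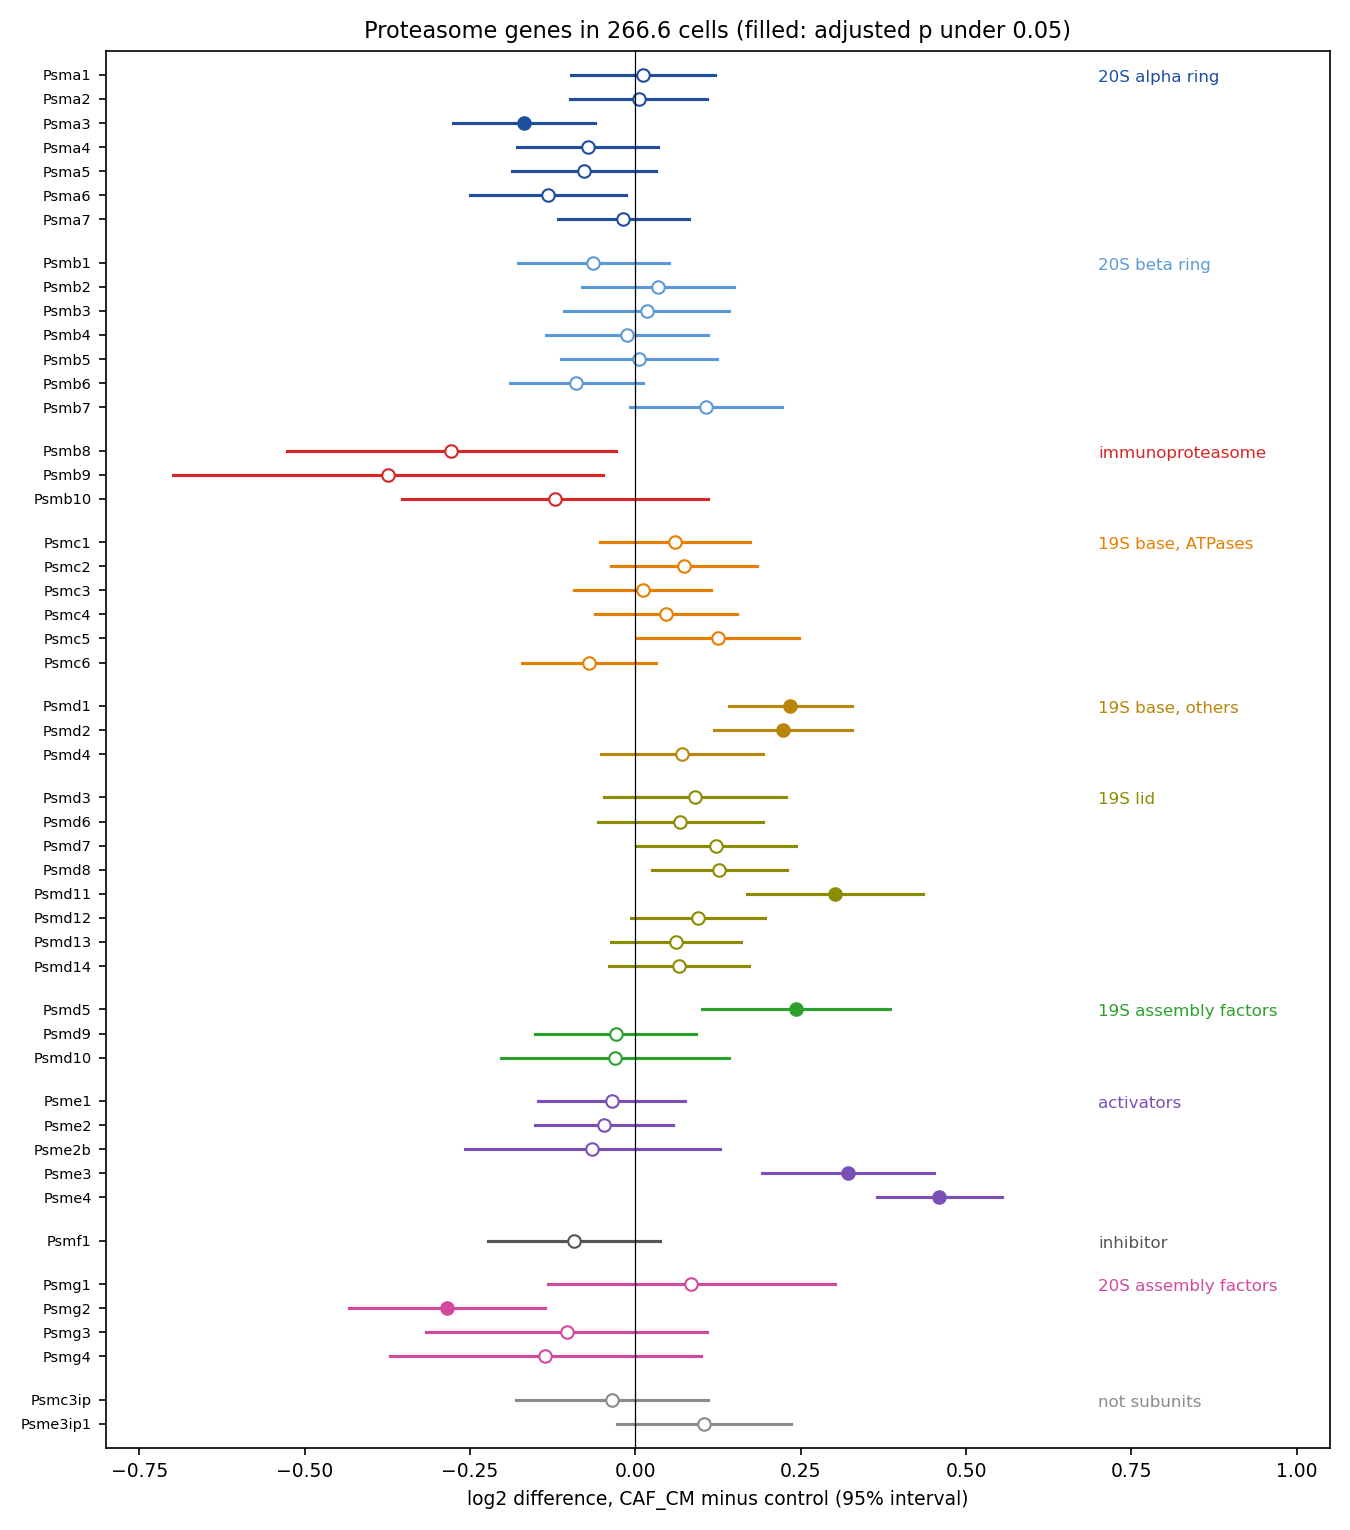
Log2 difference, CAF_CM minus control, of the 49 tested proteasome genes on the x axis, grouped by role down the page; bars are 95% intervals from limma (n = 3 per group) and filled points have an adjusted p under 0.05. The 6 filled points on the right are Psmd1, Psmd2, Psmd11, Psmd5, Psme3 and Psme4, the 2 on the left are Psma3 and Psmg2, and no filled point lies in the beta ring.

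Promoters of the genes that rose are shown because 19S cap genes carried 1 short motif more often than 20S core genes did. RefSeq promoter entries (build GRCm38.p6) were matched for 43 of the 50 genes, and the 250 bases before the start were searched on both strands for 6 motifs. The ETS core CGGAAG, a sequence bound by the ETS family of transcription factors, lay in 19 of the 43 (44.2%), beside 13.8% of 27025 promoters of all genes and 24.9% of the 10508 that belong to tested genes. It was present in 12 of 14 promoters of the 19S cap and in 2 of 11 of the 20S core. Below are the 120 bases before the start of 5 of the 6 genes that rose, 5′ to 3′ in the direction of the gene, with the matches in capitals; where CTTCCG stands, the motif is on the other strand.

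Psmd1 (chr1:86064499-86064618, plus strand): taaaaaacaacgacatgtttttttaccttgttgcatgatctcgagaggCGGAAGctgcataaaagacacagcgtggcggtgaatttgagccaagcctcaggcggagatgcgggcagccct
Psmd2 (chr16:20651532-20651651, plus strand): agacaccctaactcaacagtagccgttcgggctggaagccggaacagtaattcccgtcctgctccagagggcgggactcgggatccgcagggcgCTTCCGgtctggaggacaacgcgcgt
Psmd11 (chr11:80428495-80428614, plus strand): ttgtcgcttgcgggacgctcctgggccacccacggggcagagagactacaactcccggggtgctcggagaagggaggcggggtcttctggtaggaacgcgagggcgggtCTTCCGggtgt
Psme3 (chr11:101316093-101316212, plus strand): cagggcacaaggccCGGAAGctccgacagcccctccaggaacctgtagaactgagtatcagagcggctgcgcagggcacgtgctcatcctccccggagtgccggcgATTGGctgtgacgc
Psme4 (chr11:30771655-30771774, plus strand): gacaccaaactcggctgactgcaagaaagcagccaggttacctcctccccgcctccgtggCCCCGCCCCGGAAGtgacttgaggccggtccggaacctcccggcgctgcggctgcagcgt

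The matches to CGGAAG begin 72 bases before the start in Psmd1, 26 in Psmd2, 11 in Psmd11, 106 in Psme3 and 52 in Psme4. In Psme4 the ETS match overlaps a match to the Sp1 box GGGGCGGGG, which begins 60 bases before the start and is read there on the other strand. Psme3 also holds the NF-Y box CCAAT on the other strand, beginning 14 bases before the start. Psmd5, the remaining gene that rose, has no CGGAAG in the window. The NF-Y box lay in 34.9% of the 43, beside 37.1% of tested genes, and the core TGACNNNGC of the antioxidant response element, which the proteasome regulators NRF1 and NRF2 bind, in 11.6%, beside 12.1%. The Sp1 box lay in 14.0%, beside 20.2%, the interferon response core in 6.98%, beside 2.36%, and the STAT motif TTCNNNGAA in 4.65%, beside 5.71%. Genes with CGGAAG had a median log2 difference of 0.072 (18 tested) and those without it of -0.042 (24 tested). Most promoters of the cap held the motif and most of the core did not, so motif and class of subunit cannot be told apart. Whether the motif bears on the differences was not tested. A match describes the letters of a window and not a bound site.

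Subunits of the 20S core differed little between the groups. Of its 14 tested subunits, 0 were called higher and 1 lower (7.14%), beside 18.3% higher and 16.1% lower of all genes. The median log2 difference was -0.015 beside 0.0046 over all genes, and the range ran from -0.17 in Psma3 to 0.11 in Psmb7. Without a threshold on adjusted p, the alpha ring had 2 of 7 subunits above 0 and the constitutive beta ring 4 of 7. Psma3, an alpha subunit of the outer ring, had 2269, 2199.6 and 2332 normalized counts in CAF_CM libraries, against 2635, 2468 and 2538 in control libraries. All CAF_CM values lay below all control values. Its log2 difference was -0.17 (SE 0.049, n = 3 per group, adjusted p 0.0211 by limma), and the call was lost without control replicate 1 (adjusted p 0.110), without control replicate 3 (0.0751) and after a correction for transcript length and GC content (0.0821). Psma6, the alpha subunit of next lowest difference, had -0.13 (adjusted p 0.0790 by limma).

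The catalytic beta subunits of the constitutive core hardly differed. Psmb5, which carries the chymotrypsin-like activity, had 2383, 2144 and 2270.4 normalized counts in CAF_CM, against 2328, 2256 and 2182 in control, and the groups overlapped. Psmb6, which carries the caspase-like activity, had 4925, 4769 and 4849 in CAF_CM, against 5335, 5160.1 and 4979 in control. Psmb7, which carries the trypsin-like activity, had 2644, 2362 and 2449 in CAF_CM, against 2315, 2318 and 2279.7 in control. Psmb6 was therefore lower and Psmb7 higher in each CAF_CM library than in any control library, yet neither passed the test. Psmb7 did pass, as the 1 core subunit called higher, once length and GC content were corrected for (0.16, adjusted p 0.0110 by limma), and also without CAF_CM replicate 2 (0.14, adjusted p 0.0430). Psmb6 passed as lower with scaling to library totals (-0.13, adjusted p 0.0443). Their log2 differences were 0.0057 for Psmb5 (95% interval -0.11 to 0.12, adjusted p 0.947 by limma), -0.089 for Psmb6 (interval -0.19 to 0.01, adjusted p 0.159) and 0.11 for Psmb7 (interval -0.01 to 0.22, adjusted p 0.137). Per kilobase of transcript, Psmb6 had the highest level of the core with 6075 normalized counts in CAF_CM and 6464 in control, and Psma3 the lowest with 797 in CAF_CM and 895 in control. The order of per-length levels rests on the transcript model, since the models of Psma2 and Psma3 are far longer than those of the other alpha subunits.

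The immunoproteasome subunits were low in all libraries. Psmb8, the inducible counterpart of Psmb5, had 208, 161 and 186 normalized counts in CAF_CM, against 228, 239.7 and 203 in control. CAF_CM replicate 1 lay above control replicate 3, so the groups overlapped. Psmb9, the counterpart of Psmb6, had 90.6, 90.1 and 79.7 in CAF_CM, against 109, 138 and 95.2 in control, with each CAF_CM value below each control value. Psmb10, the counterpart of Psmb7, had 228, 181 and 229 in CAF_CM, against 225, 238 and 227 in control, which overlap, with CAF_CM replicate 2 the lowest of the 6.

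None of the 3 passed the test. The log2 difference was -0.28 for Psmb8 (SE 0.11, 95% interval -0.53 to -0.03, adjusted p 0.0791 by limma), -0.37 for Psmb9 (SE 0.15, interval -0.70 to -0.05, adjusted p 0.0722) and -0.12 for Psmb10 (SE 0.11, interval -0.35 to 0.11, adjusted p 0.405). The intervals of Psmb8 and Psmb9 are not adjusted for the number of genes. Scaling to library totals put both just past the threshold (Psmb8 -0.32, adjusted p 0.0475; Psmb9 -0.42, adjusted p 0.0496, by limma). So did leaving out CAF_CM replicate 1 for Psmb8 (-0.37, adjusted p 0.0191) and control replicate 3 for Psmb9 (-0.49, adjusted p 0.0454). After the length and GC correction the log2 difference was -0.17 for Psmb8 and -0.27 for Psmb9. The summed immune markers overlapped between the groups and lay lower in CAF_CM on the whole, and their part in these values was not tested.

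**Figure D2:**
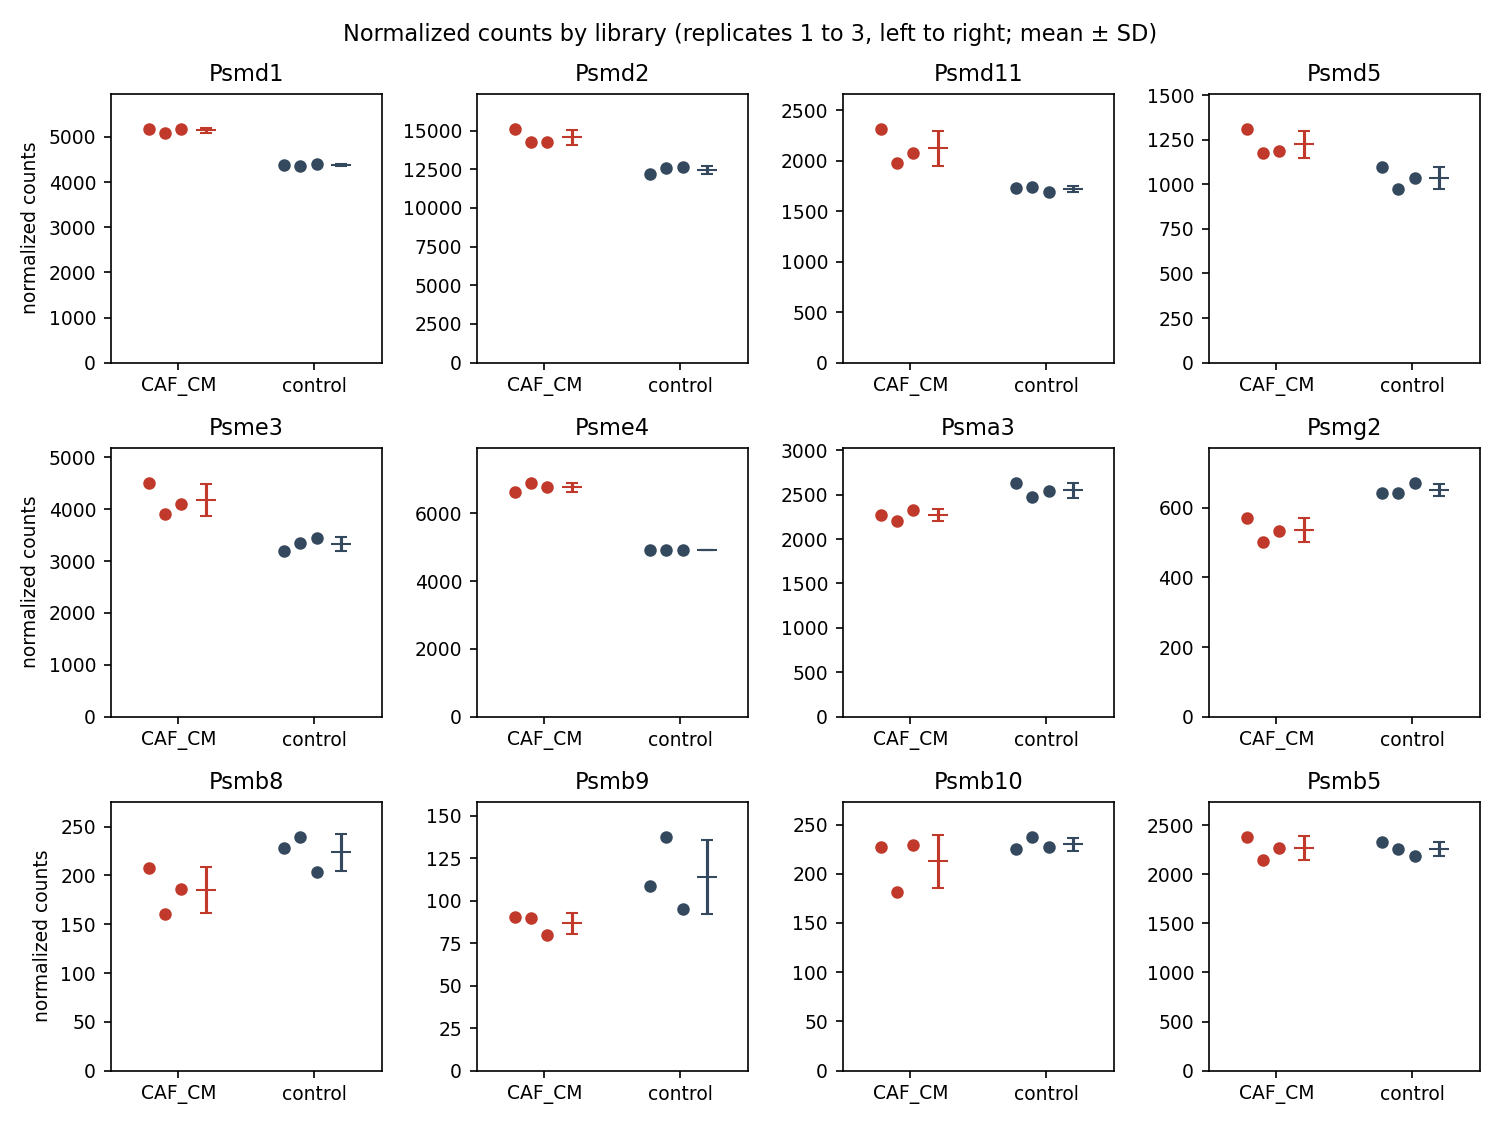
Normalized counts (y axis, from 0) in each library for the 8 called genes and for Psmb8, Psmb9, Psmb10 and Psmb5; points are replicates 1 to 3 from left to right, with CAF_CM left of control, and the bars give mean ± SD (n = 3). CAF_CM points lie wholly above control points in the 6 genes that rose and wholly below in Psma3 and Psmg2, while Psmb8, Psmb10 and Psmb5 overlap.

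Set against the constitutive subunit that it replaces in the same library, each inducible subunit had a lower ratio in every CAF_CM library than in any control library. Per length of transcript, Psmb8 stood at 4.82%, 4.14% and 4.52% of Psmb5 in CAF_CM, against 5.41%, 5.87% and 5.14% in control. Psmb9 stood at 1.09%, 1.12% and 0.970% of Psmb6 in CAF_CM, against 1.20%, 1.58% and 1.13% in control. Psmb10 stood at 7.61%, 6.79% and 8.27% of Psmb7 in CAF_CM, against 8.61%, 9.07% and 8.82% in control. The gap between the groups was narrowest for Psmb9 over Psmb6, at 0.014 percentage points. Of all genes tested, 22.9% lay wholly below control by their own values, and no such share was counted for ratios of other genes.

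As group means, Psmb8 over Psmb5 was 4.49% ± 0.343 in CAF_CM and 5.47% ± 0.369 in control (SD, n = 3 each), Psmb9 over Psmb6 was 1.06% ± 0.0765 in CAF_CM and 1.30% ± 0.239 in control, and Psmb10 over Psmb7 was 7.56% ± 0.741 in CAF_CM and 8.83% ± 0.231 in control. The log2 differences of the ratios were -0.29, -0.29 and -0.23. A 2-sided exact permutation test gave p = 0.1 for each and 0.1 after adjustment over the 3 ratios, the smallest value that 3 against 3 libraries allow, so this test cannot pass 0.05 here. Psmb7 itself lay higher in CAF_CM, so the third ratio combines a lower mean of Psmb10 and a higher mean of Psmb7. Under the 18 other settings and left-out libraries the log2 difference stayed between -0.34 and -0.23 for Psmb8 over Psmb5, between -0.38 and -0.14 for Psmb9 over Psmb6 and between -0.30 and -0.15 for Psmb10 over Psmb7.

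**Figure D3:**
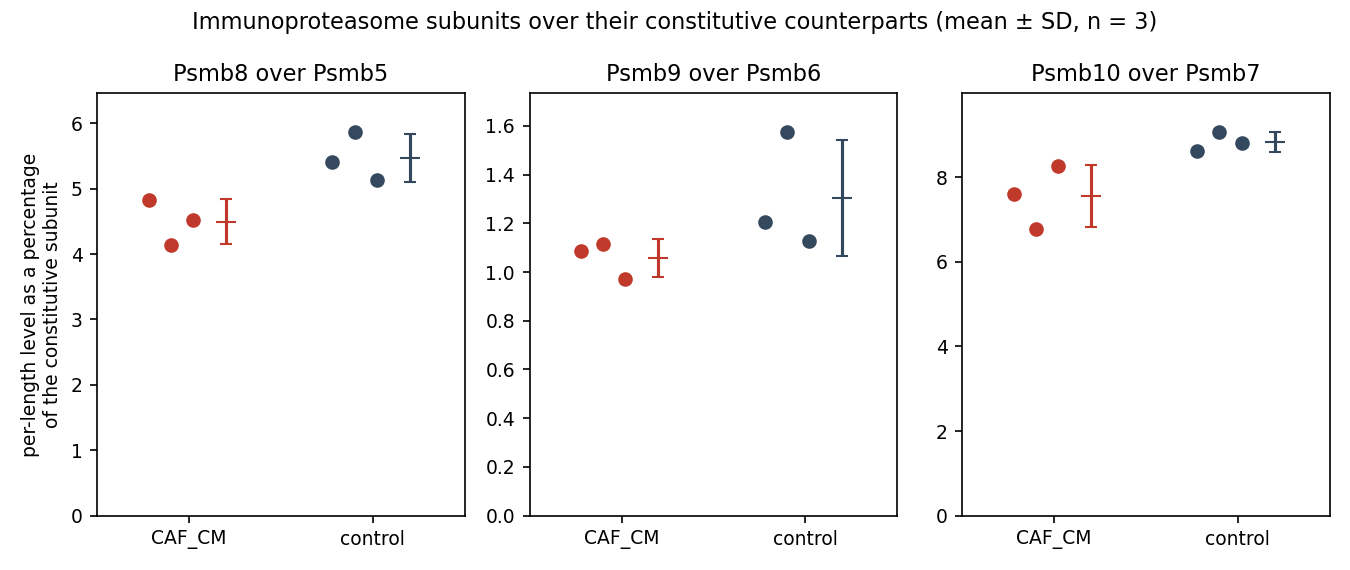
Per-length level of each immunoproteasome subunit as a percentage of its constitutive counterpart (y axis, from 0), with CAF_CM left of control; points are replicates 1 to 3 from left to right and the bars give mean ± SD (n = 3). In the 3 panels no CAF_CM point reaches the lowest control point, with the gap of Psmb9 over Psmb6 the narrowest.

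Promoters of Psmb8 and Psmb9 are given as well, since these genes had the lowest log2 differences beside Psmg2 and lie near each other on chromosome 17. Capitals mark the STAT motif TTCNNNGAA in Psmb8, which begins 97 bases before the start. In Psmb9 they mark the Sp1 box on the strand shown (56 bases before the start) and the NF-Y box on the other strand (8 bases before it). The interferon response core was not among the letters of either window.

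Psmb8 (chr17:34198075-34198194, plus strand): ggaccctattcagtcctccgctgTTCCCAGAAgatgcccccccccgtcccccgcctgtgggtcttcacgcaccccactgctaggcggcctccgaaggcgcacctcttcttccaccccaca
Psmb9 (chr17:34187331-34187450, minus strand): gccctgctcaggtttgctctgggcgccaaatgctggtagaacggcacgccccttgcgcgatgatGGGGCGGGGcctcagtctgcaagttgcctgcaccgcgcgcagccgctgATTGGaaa

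Genes that act on the immunoproteasome or take its peptides were listed beside it. The log2 difference of the interferon gamma receptor chain Ifngr1 was -0.55, with 344, 355 and 379.7 normalized counts in CAF_CM, against 499.9, 549 and 532 in control, with no overlap (adjusted p 0.000259 by limma). Jak2 and Jak1, the kinases of that receptor, rose by 0.27 (adjusted p 0.0107) and 0.15 (adjusted p 0.0297) on the log2 scale. Of the 11 listed inducers 2 were higher (18.2%, beside 18.3% of all genes) and 1 lower (9.09%, beside 16.1%), shares no larger than the background, and the transcriptional regulators Irf1 and Nlrc5 were not called, at 0.10 (adjusted p 0.243) and -0.27 (adjusted p 0.356). Correcting for length and GC content removed the calls of Jak1 (adjusted p 0.374) and Jak2 (0.0535).

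The listed genes of peptide supply to MHC class I, which include transporters and chaperones, fell in 8 of 10 cases, beside 16.1% of all genes. They rose in none, and their median log2 difference was -0.51. The peptide transporter subunits Tap1 and Tap2 fell by 0.59 and 0.58 on the log2 scale, the loading factor Tapbp by 0.57, the light chain B2m by 0.58 and the heavy chains H2.K1 and H2.D1 by 0.55 and 0.48 (all adjusted p at most 0.00117 by limma). The loading chaperones Pdia3 and Calr fell by 0.27 and 0.22. Tap1 had 178, 172 and 148 normalized counts in CAF_CM, against 268, 241 and 244 in control, with no overlap.

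Most subunits of the 19S cap had a positive log2 difference. Of its 17 tested subunits, 3 were called higher (17.6%) and 0 lower, beside 18.3% and 16.1% of all genes, so the share of calls was that of the background. Yet 16 of the 17 log2 differences were above 0, beside 50.6% of all genes, with a median of 0.074 (0.028 with scaling to library totals) and a range from -0.070 in Psmc6 to 0.30 in Psmd11. CAF_CM libraries lay wholly above control for 8 of the 17 (47.1%, beside 24.8% of all genes). The base subunits without ATPase activity had a median of 0.22, the lid 0.093 with all 8 above 0, and the ATPases 0.053.

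Psmd1 and Psmd2, the 2 large scaffold subunits of the base that dock ubiquitin receptors and shuttle proteins, both rose. Psmd1 had 5185, 5089 and 5167 normalized counts in CAF_CM, against 4375, 4356 and 4392 in control, without overlap. Its log2 difference was 0.23 (SE 0.043, 1.18-fold, adjusted p 0.00166 by limma). Psmd2 had 15127, 14261 and 14275 in CAF_CM, against 12181, 12586 and 12628 in control, again without overlap. Its log2 difference was 0.22 (SE 0.047, 1.17-fold, adjusted p 0.0041 by limma), and per kilobase it was the most abundant cap subunit, at 4915 normalized counts in CAF_CM and 4209.8 in control.

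Psmd11, a lid subunit that helps to hold the lid on the core, had the largest difference of the cap. It had 2319.8, 1980.2 and 2074 normalized counts in CAF_CM, against 1732, 1740.5 and 1687 in control. CAF_CM replicate 1 was the highest, and all 3 exceeded every control library. The log2 difference was 0.30 (SE 0.061, 1.23-fold, adjusted p 0.00308 by limma). The other lid subunits lay between 0.062 in Psmd13 and 0.13 in Psmd8 without a call. Psmd8 was nearest, with 2707, 2584 and 2579 in CAF_CM, against 2382, 2439 and 2382 in control and an adjusted p of 0.0527. Psmd14, the deubiquitinase of the lid, stood at 0.066.

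The 6 ATPases, which unfold the substrate, had no call. Psmc5 had the highest log2 difference of them, 0.12 (adjusted p 0.107 by limma), and Psmc6 the lowest, -0.070 (adjusted p 0.268). Psmc6 was the 1 cap subunit whose CAF_CM values, 3546, 3343 and 3560.3, all lay below its control values, 3680.3, 3659 and 3625. After the length and GC correction its sign turned, to 0.12 with an adjusted p of 0.0442.

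The ratio of cap to core counts was higher in each CAF_CM library than in any control library. Summed over subunits, 19S cap over 20S core normalized counts gave 1.59, 1.55 and 1.55 in CAF_CM, against 1.37, 1.43 and 1.43 in control, with no overlap. The sums are not divided by transcript length, which is larger in the cap (median 1636 bases, beside 1162.5), so they do not give relative numbers of transcripts. They also weigh abundant genes most, among them Psmd2, which was called higher (mean 14554 in CAF_CM and 12465 in control). The median cap subunit stood 0.16, 0.046 and 0.071 log2 units from the mean of the control libraries in CAF_CM, against 0.0044, 0.0018 and -0.0015 in control. For the core the same medians were 0.043, -0.079 and -0.024 in CAF_CM, against 0.044, -0.020 and -0.020 in control. The cap medians of the CAF_CM libraries were all above those of control, and the core medians overlapped. Of the CAF_CM libraries, replicate 1 had the highest and replicate 2 the lowest median in both. Without CAF_CM replicate 2 the cap had 5 of 17 called higher, beside 19.2% of all genes, adding Psmd7 (adjusted p 0.0482 by limma) and Psmd8 (0.0403). The median log2 difference of the cap was then 0.12, beside 0.074 with all libraries. Without CAF_CM replicate 1 it was 0.053, with 3 of 17 called higher, beside 21.7% of all genes.

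**Figure D4:**
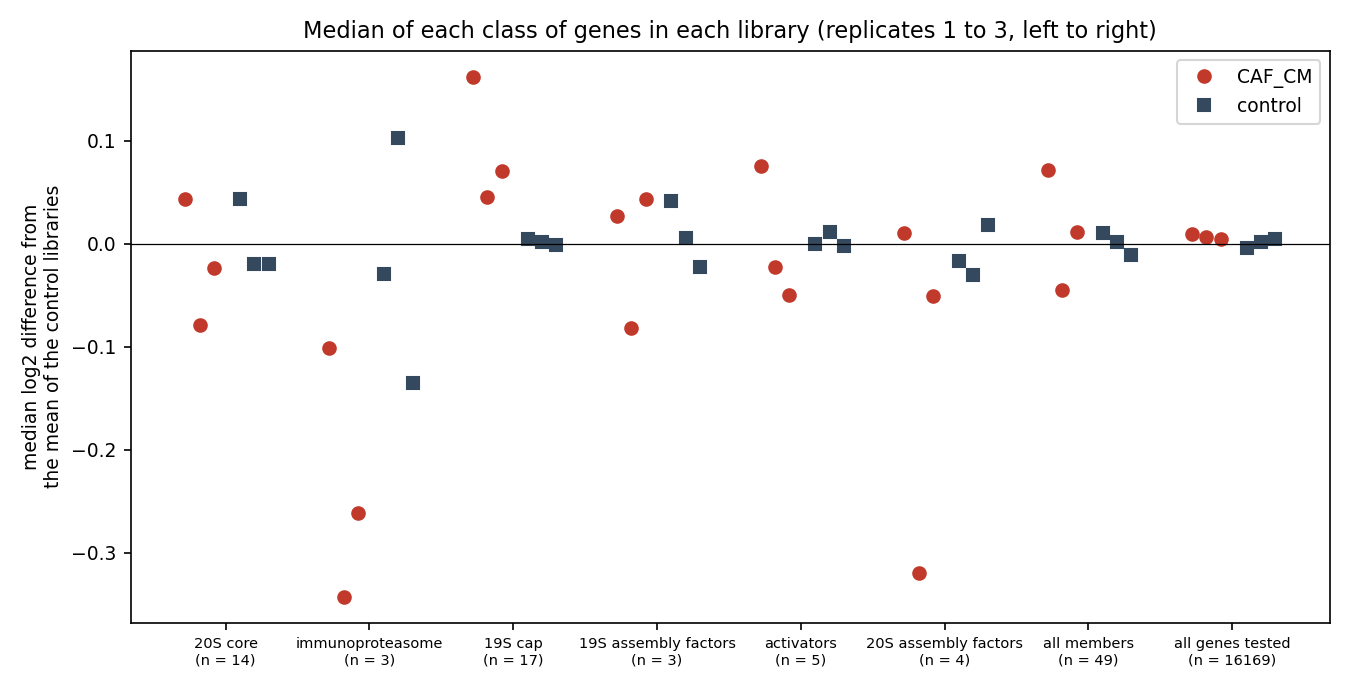
Median over the genes of each class of the log2 difference from the mean of the control libraries (y axis), with CAF_CM circles left of control squares and replicates 1 to 3 from left to right in each. The 3 CAF_CM medians of the 19S cap lie above its control medians, those of the 20S core overlap, and the medians over all genes tested lie near 0.

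Transcript length moved with these results. All 6 genes that rose have transcripts of at least 2500 bases, among 11 such proteasome genes with a median log2 difference of 0.22 (6 higher, 1 lower). The 38 shorter ones had 0 higher and 1 lower and a median of -0.0035. The limit of 2500 bases was chosen after the values were seen, and the share called among all genes of at least that length was not counted. Spearman's correlation of log2 difference with length was 0.45 over the 49 genes and 0.22 over the 15565 genes with a length, as a description over genes that share the same libraries. The median length was 1162.5 bases in the core and 1636 in the cap, beside 2651 over all tested genes with a length.

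A spline correction of each library for length and GC content took the correlation over all genes to -0.014 and left 0.42 over the proteasome genes. The corrected fit called 18 of the 49 higher and 1 lower, beside 22.3% higher and 15.9% lower of all 15565 genes. The cap had 14 of 17 called higher, all 17 above 0 and a median of 0.16, and the core had 1 called higher and a median of 0.059, beside a median of 0.033 over all genes. The median of the cap was above that of the core with and without the correction. Psme4, Psme3, Psmd11, Psmd1 and Psmd2 kept their calls, at 0.31, 0.37, 0.32, 0.23 and 0.27 log2 units, and Psmd5 lost its call at 0.15 (adjusted p 0.0996). Shorter subunits with no call in the deposited values passed the corrected test, so the number of cap genes that rose depends on this step, and length and GC content were not told apart here.

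**Figure D5:**
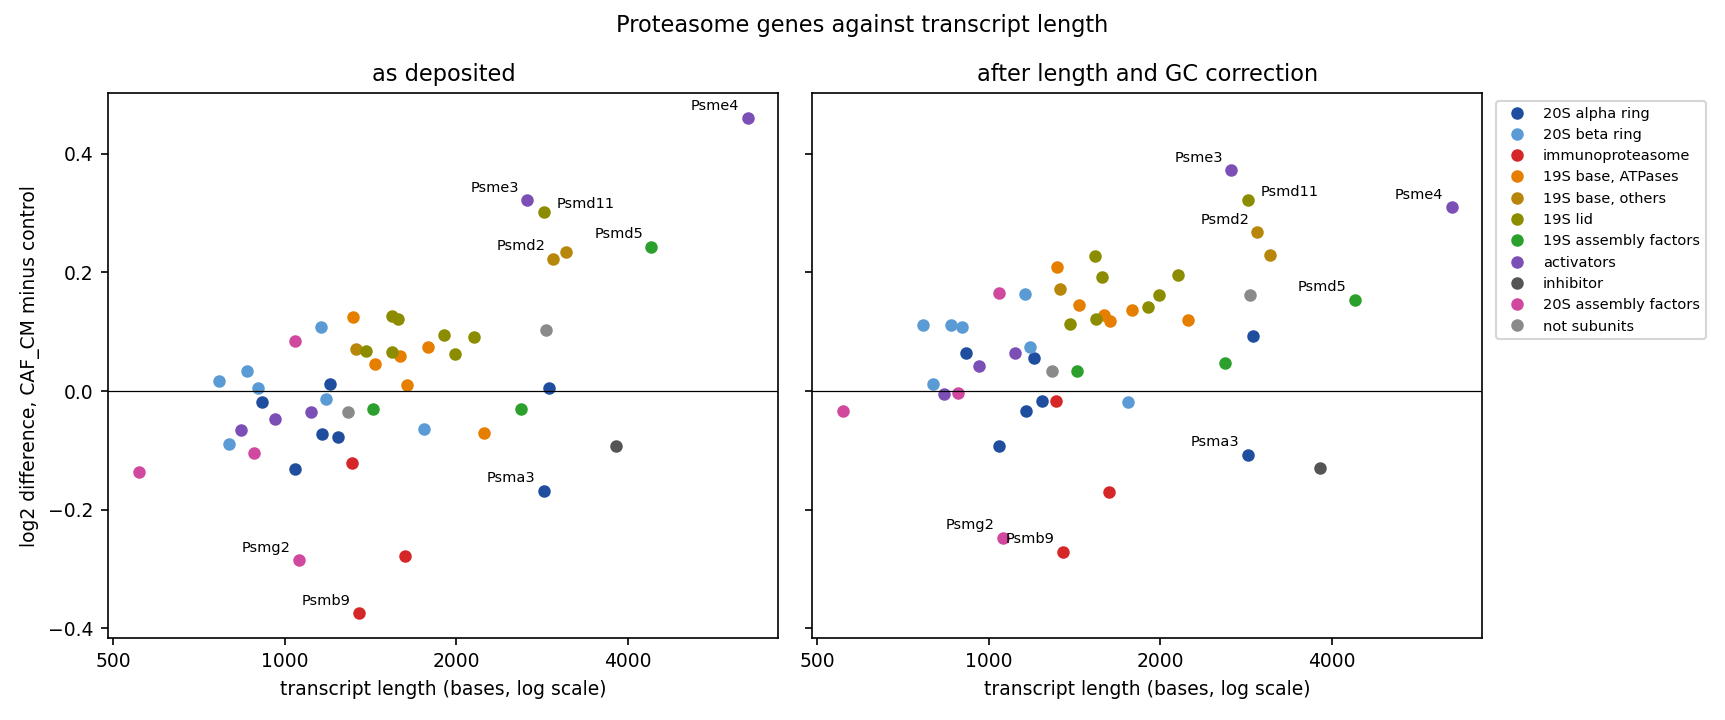
Log2 difference, CAF_CM minus control (y axis), of the 49 tested proteasome genes against transcript length in bases (x axis, log scale), as deposited on the left and after the length and GC correction on the right; colours give the role. On the left the 6 genes that rose are among the long ones, and on the right the 17 cap subunits all lie above 0.

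Among the alternative caps, the genes split by type. Psme4 encodes PA200, a large single-chain cap known for histone turnover and DNA repair. It had 6636, 6907 and 6771 normalized counts in CAF_CM, against 4923, 4929.6 and 4916 in control. The groups did not overlap, at 6772 ± 136 in CAF_CM and 4923 ± 6.62 in control (SD, n = 3 each). The control SD is smaller than read counting alone would give, so it understates the spread. The log2 difference of 0.46 (SE 0.043, 1.38-fold, adjusted p 4.59e-05 by limma) was the highest of the proteasome genes.

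Psme3 encodes PA28 gamma, the nuclear ring cap that promotes breakdown of proteins without ubiquitin. It had 4511, 3906 and 4092 normalized counts in CAF_CM, against 3190.1, 3356 and 3447 in control. CAF_CM replicate 1 was again the highest, and the groups did not overlap. Its log2 difference was 0.32 (SE 0.059, 1.25-fold, adjusted p 0.0018 by limma).

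Psme1 and Psme2, the interferon-inducible PA28 alpha and beta chains that form the ring cap used in antigen processing, were not called. Psme1 had 3228, 3012 and 3075 in CAF_CM, against 3283, 3231 and 3038 in control, which overlap (log2 difference -0.036, 95% interval -0.15 to 0.08, adjusted p 0.626 by limma). Psme2 had 1562, 1588 and 1535 in CAF_CM, against 1591, 1627 and 1623 in control, each CAF_CM value lower by a little (-0.047, interval -0.15 to 0.06, adjusted p 0.476). Psme2b is a near copy of Psme2, so reads may have been divided between them, and it stood at -0.065 (adjusted p 0.611). Psmf1, the inhibitor PI31, stood at -0.093 (adjusted p 0.251).

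Of the chaperones that build the cap, Psmd5 rose and Psmd9 and Psmd10 were not called. Psmd5, which holds ATPase subunits in a module before the base is complete, had 1312, 1174 and 1188 normalized counts in CAF_CM, against 1097, 973 and 1033 in control, with no overlap. Its log2 difference was 0.24 (SE 0.065, 1.18-fold, adjusted p 0.0136 by limma). The call was lost without control replicate 2 (adjusted p 0.0799) and without control replicate 3 (0.0516). Psmd9 stood at -0.030 and Psmd10, also known as gankyrin, at -0.031 (adjusted p 0.717 and 0.793).

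Of the chaperones that build the core, Psmg2 fell. Psmg2 pairs with Psmg1 to template the alpha ring, and it had 571, 501 and 533 normalized counts in CAF_CM, against 641, 642 and 672 in control. All CAF_CM values were lower. The log2 difference was -0.28 (SE 0.068, 1.22-fold lower, adjusted p 0.00756 by limma), and after the length and GC correction it was -0.25 and still called. Its partner Psmg1 had 938, 672 and 834 in CAF_CM, against 755, 771 and 757 in control, with CAF_CM replicate 2 below and the other two above every control library (0.085, adjusted p 0.549). Without that replicate Psmg1 stood at 0.22 with an adjusted p of 0.0206. Psmg3 and Psmg4, the other pair, stood at -0.10 and -0.14 (adjusted p 0.444 and 0.357).

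Variation was larger in CAF_CM than in control. The SD of log2 values between replicates had a median of 0.069 in CAF_CM and 0.038 in control over proteasome genes, beside 0.121 in CAF_CM and 0.067 in control over all genes. Psmb11, below the limit for testing, had 2.06, 0.979 and 2.85 normalized counts in CAF_CM, against 2.89, 4.08 and 5.23 in control, a few reads in each library. The rows Psmc3ip, a meiotic recombination factor, and Psme3ip1, a partner of PA28 gamma, stood at -0.035 and 0.10 without a call.

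Genes that serve the proteasome from outside the symbol rule were listed too. Of 34 listed, 33 were tested, 12 were higher (36.4%) and 3 lower (9.09%), with a median log2 difference of 0.10, beside 18.3% higher and 16.1% lower of all genes. The subunits Adrm1 and Sem1 and the core chaperone Pomp, whose symbols lie outside the rule, were not called and stood at 0.094, 0.016 and -0.069. Among factors that govern proteasome genes, 4 of 9 rose (44.4%, beside 18.3% of all genes) and none fell. Mafg, a small partner of NRF1 and NRF2, rose by 0.39, Ddi2, the protease that activates NRF1, by 0.36, and Nfe2l2, which encodes NRF2, by 0.21 on the log2 scale (adjusted p 0.000191, 0.00136 and 0.0152 by limma). Nfe2l1, which encodes NRF1, had 3205, 3227 and 3256 normalized counts in CAF_CM, against 3086, 3226 and 3344 in control, which overlap (adjusted p 0.941). The Nfe2l2 call was lost with DESeq2 (adjusted p 0.0528), without CAF_CM replicate 3 (0.0506) and without control replicate 2 (0.0846).

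Shuttle factors and unfoldases, which bring tagged proteins to the cap, rose in 5 of 8 cases (62.5%, beside 18.3% of all genes) and fell in none. Ubqln2 and Ubqln1, ubiquilins that bind both ubiquitin and the cap, rose by 0.43 and 0.38 on the log2 scale, Nploc4, an adaptor of the unfoldase VCP, by 0.32 and Rad23b by 0.27. Ubqln2 had 2885, 2518 and 2611 normalized counts in CAF_CM, against 1969, 1989 and 1998 in control. Of the 9 proteins that sit on the proteasome, 3 rose (33.3%, beside 18.3% of all genes) and 1 fell (11.1%, beside 16.1%). The ligase Ube3c, which extends ubiquitin chains on proteasome-bound proteins, rose by 0.42, with 6440.4, 6771 and 6357 in CAF_CM, against 4837, 4807 and 4996 in control. Midn, which carries nuclear proteins to the proteasome, rose by 0.29 and the deubiquitinase Usp14 by 0.25, while Fbxo7, a partner of PI31, fell by 0.37.

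The polyubiquitin gene Ubb, which responds to stress, had 69379.6, 62249 and 64137 normalized counts in CAF_CM, against 66163, 66439 and 65464 in control. The groups overlapped, and the log2 difference was -0.018 (adjusted p 0.838 by limma).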

How the data were processed

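RNA of 6 samples was sequenced from TruSeq libraries, per the labels' protocols. FastQC, DESeq2 and hg19, a human build, are named in the submitters' processing notes, although the gene symbols are those of mouse. The aligner, counter and mouse build are not given in the sources used here. The deposited values are a non-negative signal, namely read counts over 1 factor per library, computed by the authors. In every library 100% of values were whole multiples, within 0.001 of a read, of 0.949 to 1.05, the worth of 1 read. Of 20764 rows, 168 without a symbol (0.153% to 0.261% of reads) were left out.

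Differences were tested in R 4.3.3 by limma 3.58.1, with a trended variance, on log2 of the value plus 1. The 16169 genes that reached 10 in 3 or more libraries entered, with Benjamini-Hochberg adjustment at 0.05. The scale understates changes of low genes. EdgeR 4.0.16, run as an alternative on recovered reads, called 2888 genes higher and 2682 lower; DESeq2 1.42.0, voom, other scalings, pseudocounts and filters, a replicate block and left-out libraries were further alternatives. The test was checked on simulated data. Transcript length and GC content came from the principal protein-coding GENCODE vM21 transcript of each symbol, found for 96.3% of genes tested. Promoters came from RefSeq on GRCm38.p6.

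The genes and lists were chosen with earlier results of these data known. Named genes were every proteasome gene called, the catalytic pairs, Psme1 and Psme2, the extremes of each class, and up to 12 called genes of each list of other genes by lowest adjusted p; further genes were picked with their values in view. Ratios of catalytic pairs under other settings were added after seeing the data. Some genes, including ones that this rule names, are not reported here. Symbols are spelled as in the table, with a full stop for a hyphen.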

Additional observations from a re-analysis of the deposited data

How the results depend on the processing

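The calls of Psmd1, Psmd2, Psmd11, Psme3, Psme4 and Psmg2 held in all 18 alternatives tried, and those of Psmd5 and Psma3 in 15 of 18. Over the 49 proteasome genes and 18 alternatives, 812 of 882 results kept direction and side of the threshold, 6 lost a call, 25 gained one and 39 turned sign, all of the last in genes without a call. For 23 called genes of the lists of other genes, 401 of 414 results kept direction and side of the threshold and 13 lost a call. The length and GC correction moved most: 18 proteasome genes were higher and 1 lower, 14 cap genes were higher, and the median log2 difference became 0.059 in the 20S core, 0.16 in the 19S cap, 0.064 in the activators and 0.11 over all 49. It turned Psma7 to 0.063, Psmb4 to 0.075, Psmb6 to 0.012, Psmc6 to 0.12, Psmd9 to 0.048, Psmd10 to 0.034, Psme1 to 0.064, Psme2 to 0.042 and Psmc3ip to 0.033. Scaling to library totals called 6 genes lower, and turned Psma1 to -0.034, Psma2 to -0.040, Psmb2 to -0.011, Psmb3 to -0.028, Psmb5 to -0.040 and Psmc3 to -0.035. Psma2 and Psmb5 also turned with TMM (-0.0012 and -0.00063), edgeR (-0.0010 and -0.00047), DESeq2 (-0.0029 and -0.0023) and limma-voom (-0.0016 and -0.0015). The causes of these moves were not tested. Leaving out each library in turn gave 5 to 10 proteasome genes higher and 1 to 4 lower, 3 to 5 cap genes higher, and 1868 to 3509 genes higher and 1659 to 2943 lower over the whole table. It put Psma1 between -0.019 and 0.041, Psma2 between -0.019 and 0.033, Psma7 between -0.033 and 0.0068, Psmb2 between -0.0055 and 0.067, Psmb3 between -0.041 and 0.054, Psmb4 between -0.058 and 0.024, Psmb5 between -0.031 and 0.045, Psmc3 between -0.017 and 0.041, Psme2b between -0.14 and 0.011, Psmg1 between -0.024 and 0.22 and Psmg3 between -0.18 and 0.018. The labels do not say whether the replicate numbers pair the libraries, and the main fit left them unpaired. Deviations of libraries with the same number correlated at 0.0703, 0.0291 and 0.0305, and each library correlated best with its own number. With the replicate block, 6 proteasome genes were higher and 2 lower, and 3166 and 2755 over all genes. No outlier test was made, since groups of 3 are too small for it. The called difference of smallest size among the 49 was -0.17 in Psma3, and none smaller in size was called at this spread.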
